A study of Mus musculus with 9 samples.

Results

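The interleukin receptors are the surface proteins through which cells sense interleukins, and 39 of the 55401 genes in the deposited table carry a name of that kind. They were taken by gene name alone, as Il, a number, r and a chain suffix such as a, b, g, ap or l1, so no measured value entered the choice. Shared chains with other names, such as Il6st and Csf2rb, are not among the 39 and are described with the pathway genes. Il17rc is left out by the pattern.

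RNA was sequenced from peri-infarct brain tissue of wild-type mice, the same genotype in all groups, at day 28 of a photothrombotic stroke model. Photothrombosis (PT) closes vessels of the cortex by lighting a photosensitive dye. The 3 groups held 3 libraries each: sham-operated mice on ultrapure water (Sham), PT mice on ultrapure water (PT), and PT mice on Pushen, a drug with an approval number, dissolved in such water and dosed by gavage from 24 h after surgery (Pushen). By label, Pushen libraries 1, 2 and 3 had 391, 392 and 393 mg/kg, a step of 1 per library that may be an error of entry, and they were treated as 1 group, with strain, age and sex not given in the sources used here. Whether each library is its own animal is not stated, and the tests therefore weigh a spread among libraries that may be technical.

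Library totals lay between 57437342 and 75100133 counts. Neuronal markers were abundant in every library, with a summed level of 8 genes between 591 and 1076 FPKM (fragment counts scaled to gene length and library size). The labels' extraction protocol speaks of retinas, while 8 photoreceptor genes summed to between 0.35 and 0.65 FPKM. Several infarct libraries stood apart in other tissue markers. PT library 1 had 543 FPKM over 8 striatal neuron genes against 68.9 to 131 elsewhere. PT library 1 and Pushen library 2 had 547 and 628 FPKM over 8 choroid plexus genes against 3.13 to 151 elsewhere.

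Interleukin receptors work as pairs or trios of chains, in which one chain usually binds the cytokine and another carries the signal. Receptors of the common gamma chain, IL-6, IL-10 and IL-12 families signal through JAK kinases and STAT transcription factors, and those of the IL-1 and IL-17 families through adaptor proteins that lead to NF-kappaB. In brain tissue most of these genes are known from microglia, macrophages and lymphocytes, while astrocytes, endothelium and neurons carry a smaller set. In bulk tissue a change in the number of cells that express a gene and a change in RNA per cell cannot be told apart.

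After PT the summed level of the family was higher in every infarct library than in any Sham library, and the order of the genes changed. The 39 genes together summed to between 24.4 and 26.3 FPKM in Sham, between 49.9 and 68.5 in PT and between 38.9 and 63.3 in Pushen. In Sham the highest levels were those of Il11ra1 (mean 5.10 FPKM), Il1rap (3.74) and Il17ra (3.10). In PT they were those of Il11ra1 (8.34), Il10ra (6.38), Il10rb (5.83), Il4ra (5.09) and Il13ra1 (5.02). Each of these 5 overlapped with the next in its PT libraries, so neighbours in that order are not resolved, while Il11ra1 lay above Il13ra1 in every PT library. Il2rg moved from the 17th level among the members in Sham to the 8th in PT, and Il7r from the 26th to the 13th.

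Testing required an average level of 0.5 FPKM or more across the 9 libraries, and 19 of the 39 members met it. Of these, 14 rose and 1 fell in PT against Sham by edgeR's quasi-likelihood test with a Benjamini-Hochberg adjusted p under 0.05, while 19.1% of all 16740 tested genes rose and 11.8% fell. The median log2 fold change of the 19 was 1.92, beside -0.00292 over all tested genes. For 6 of the 19 (Il2rg, Il2rb, Il7r, Il21r, Il3ra and Il17rb) the Sham mean was under 0.5 FPKM, so they met the requirement through the infarct groups, and the count is a description of those members only. Without any requirement on the level, 38 members had a count, and 20 were higher and 2 lower, beside 9.18% and 4.59% of the 35527 genes with a count. By FPKM, every PT library lay above every Sham library for 16 of the 19, and below for 1, beside 29.3% and 18.6% of all tested genes. The plot of levels by library shows these values.

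**Figure D1:**
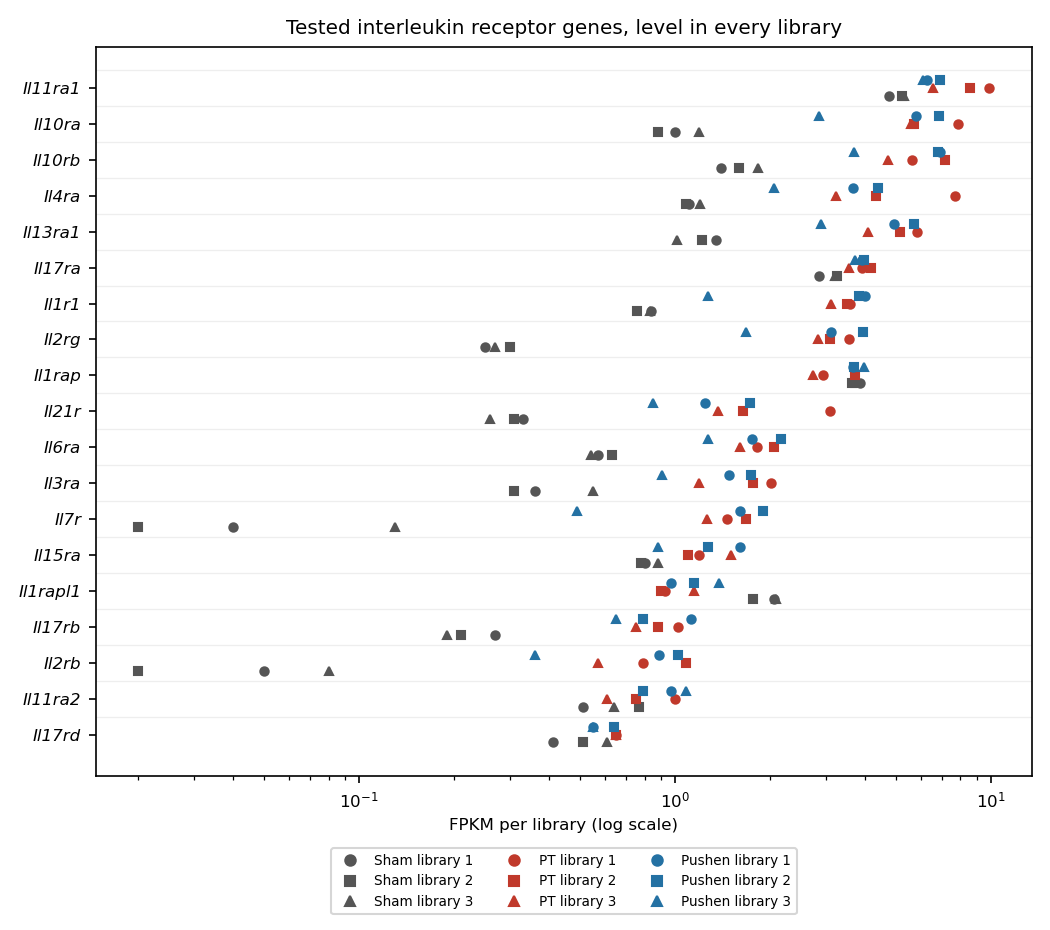
FPKM on a log axis (horizontal) of the 19 tested interleukin receptor genes (vertical) in each of the 9 libraries, coloured by group, with the marker giving the library number. For Il2rg, Il7r and Il2rb the PT and Pushen points lie far to the right of Sham, while for Il1rapl1 they lie to the left, and the triangle of Pushen library 3 is often the leftmost infarct point.

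The 3 largest fitted rises were those of Il7r, Il2rb and Il2rg, all of the common gamma chain group. Of 8 genes of this group 6 were tested, 5 rose and 0 fell, beside 19.1% and 11.8% of all tested genes. Of the risers, Il2rg, Il2rb, Il7r and Il21r met the level requirement through the infarct groups, so the count describes the tested genes only. Il2rg, the shared gamma chain itself, stood at 0.25, 0.30 and 0.27 FPKM in Sham libraries 1 to 3, at 3.56, 3.09 and 2.84 in PT and at 3.11, 3.92 and 1.67 in Pushen. Every infarct library was above every Sham library, and the fitted rise in PT was 10.8-fold (log2 3.43 ± 0.30 SE, adjusted p = 0.000446). Il7r, the receptor chain for IL-7 that sustains T cells, stood at 0.04, 0.02 and 0.13 FPKM in Sham, at 1.46, 1.68 and 1.26 in PT and at 1.60, 1.90 and 0.49 in Pushen. Its Sham values rest on 71 counts in 3 libraries, and its rise of 4.44 ± 0.68 on the log2 scale (adjusted p = 0.00198) is the largest and also the least precise of the tested members.

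Il2rb, the signalling beta chain for IL-2 and IL-15, was at 0.05, 0.02 and 0.08 FPKM in Sham, 0.79, 1.08 and 0.57 in PT and 0.89, 1.02 and 0.36 in Pushen. It rose by 4.02 ± 0.56 on the log2 scale (adjusted p = 0.00126), from Sham values that rest on 48 counts in 3 libraries. The chains that give IL-2 and IL-15 their high-affinity receptors differed from it in level. Il2ra, the high-affinity IL-2 chain, had 31 counts in all Sham libraries and 135 in all PT libraries and lay below the level required for testing. Il15ra, which presents IL-15, was already at 0.80, 0.78 and 0.88 FPKM in Sham and reached 1.19, 1.10 and 1.50 in PT, a difference of 0.55 ± 0.22 that did not pass (adjusted p = 0.0824). The genes of these last chains lie beside each other on chromosome 2, with 12096 bases between them.

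Il4ra and Il21r are likewise neighbours, on chromosome 7 from 125552120 to 125579474 and from 125603429 to 125633272, both on the plus strand. Il4ra, the signalling chain for IL-4 and IL-13, was at 1.11, 1.08 and 1.20 FPKM in Sham, 7.71, 4.33 and 3.24 in PT and 3.66, 4.38 and 2.05 in Pushen. Il21r, the IL-21 receptor of lymphocytes, was at 0.33, 0.31 and 0.26 FPKM in Sham, 3.08, 1.64 and 1.37 in PT and 1.24, 1.73 and 0.85 in Pushen. Both were highest in PT library 1, the library with the high striatal and choroid plexus values, and both PT groups stayed clear of Sham without it. They rose by 2.11 ± 0.35 (adjusted p = 0.00268) and 2.70 ± 0.36 (adjusted p = 0.00111) on the log2 scale, and by 1.69 and 2.27 without PT library 1.

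Il9r, a mast cell and T cell receptor chain, had 4 counts in Sham, 48 in PT and 12 in Pushen. Markers of lymphocytes, macrophages and other cell types also differed between Sham and PT. The T cell receptor complex genes Cd3d and Cd3g, chosen after their values were seen, stood at 0 FPKM in 3 and 2 of the Sham libraries and between 0.33 and 0.82 in PT. Of 10 T cell genes 4 were tested and 3 rose, of 8 B and plasma cell genes 4 were tested and 4 rose, and of 9 monocyte and macrophage genes 6 were tested and 6 rose. Of all tested genes 19.1% rose. The tested monocyte and macrophage genes and the T cell genes that rose all had a Sham mean under 0.5 FPKM. So had Cd79a and Jchain of the B and plasma cell list and Nkg7 of the NK list. These genes met the level requirement through the infarct groups, so the counts describe the tested genes only. Of the tested genes of other lists, 5 of 8 rose for microglia, 7 of 8 for astrocytes and 7 of 8 for endothelium. For fibroblasts and meninges 8 of 8 rose, for oligodendrocytes 6 of 8 and for pericytes and smooth muscle 5 of 8. Dendritic cells had 1 of 4, NK and innate lymphoid cells 1 of 2, mast cells and basophils 1 of 2 and neutrophils 0 of 3. The T cell list as a sum was dominated by Trbc2 and Cd4, and ran from 15.9 to 17.1 FPKM in Sham and from 14.2 to 23.8 in PT. The B and plasma cell sum ran from 17.7 to 24.7 and from 233 to 315, and the monocyte and macrophage sum from 1.03 to 1.42 and from 11.1 to 15.4. The part of these cells in the receptor differences was not tested.

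The IL-13 receptors split into a signalling chain and a decoy. Il13ra1, which pairs with Il4ra, was at 1.35, 1.22 and 1.01 FPKM in Sham, 5.84, 5.14 and 4.08 in PT and 4.93, 5.70 and 2.89 in Pushen, and rose by 2.02 ± 0.25 on the log2 scale (adjusted p = 0.000814). The decoy chain Il13ra2 had 0 counts in every Sham and Pushen library and 4, 15 and 0 in the PT libraries, so it was at or near the detection limit throughout. Il3ra, the IL-3 chain of the common beta family, was at 0.36, 0.31 and 0.55 FPKM in Sham, 2.01, 1.76 and 1.19 in PT and 1.48, 1.74 and 0.91 in Pushen. It rose by 1.94 ± 0.32 (adjusted p = 0.00273). Its relative for IL-5, Il5ra, a marker of eosinophils, had 4 counts in Sham, 4 in PT and 16 in Pushen.

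Of the IL-10 family, both chains of the IL-10 receptor rose and the epithelial members stayed low. Il10ra, the chain that binds IL-10, lies on chromosome 9 from 45253837 to 45269149. It was at 1.00, 0.88 and 1.19 FPKM in Sham, 7.87, 5.69 and 5.57 in PT and 5.78, 6.84 and 2.85 in Pushen, a rise of 2.58 ± 0.31 on the log2 scale in PT (adjusted p = 0.000711). Il10rb, the accessory chain shared with IL-22 and interferon lambda, was at 1.40, 1.59 and 1.83 FPKM in Sham, 5.63, 7.16 and 4.71 in PT and 6.89, 6.81 and 3.67 in Pushen, and rose by 1.80 ± 0.25 (adjusted p = 0.00123). In each gene all 6 infarct libraries lay above all Sham libraries. The ligand gene Il10 itself had 0 counts in Sham and in Pushen and 8 in PT. Il20ra, Il20rb and Il22ra1, which serve IL-20 and IL-22 in epithelia, had 28, 166 and 8 counts in Sham and 91, 338 and 62 in PT, and none of them passed without the level requirement. Il22ra2, a soluble IL-22 binding protein, had 0 counts in every library.

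In the IL-6 and IL-12 family 3 of 8 members were tested and 2 rose. Il6ra, the IL-6 binding chain, was at 0.57, 0.63 and 0.54 FPKM in Sham, 1.81, 2.06 and 1.60 in PT and 1.75, 2.17 and 1.27 in Pushen, and rose by 1.59 ± 0.19 on the log2 scale (adjusted p = 0.000676). Il11ra1, the IL-11 receptor, was the highest member in every group and rose by 0.65 ± 0.14 (adjusted p = 0.00782). It was at 4.75, 5.24 and 5.30 FPKM in Sham, 9.88, 8.57 and 6.56 in PT and 6.26, 6.88 and 6.10 in Pushen. The interval that the table gives Il11ra1 spans several other expressed genes, and Il11ra2 is a near copy of it, so the values of both are uncertain. Il11ra2 (0.64 FPKM in Sham, 0.79 in PT) did not pass.

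Scarcer in this family were the chains for IL-12, IL-23 and IL-27, which are known from T and NK cells. Il12rb1 had 192 counts in Sham, 536 in PT and 571 in Pushen, and Il27ra had 33, 170 and 209. Fitted without the level requirement, they were higher in PT by 1.35 ± 0.32 (adjusted p = 0.0197) and 2.24 ± 0.52 (adjusted p = 0.0189) on the log2 scale. Il12rb2, the second IL-12 chain, had 117 counts in Sham and 147 in PT and did not pass, and its end overlaps the abundant Serbp1. Its neighbour Il23r, on chromosome 6, had 0 counts in Sham and Pushen and 4 in PT. Il31ra, the IL-31 receptor chain, which overlaps the more abundant pseudogene Gm3226, had 119, 98 and 118 counts in the 3 groups, with 98 of the Sham counts in library 2.

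Among the 4 IL-17 receptors 3 were tested and 2 rose, the shared chain only slightly. Il17ra was at 2.86, 3.25 and 3.20 FPKM in Sham, 3.90, 4.16 and 3.55 in PT and 3.89, 3.96 and 3.71 in Pushen. Its rise of 0.26 ± 0.08 on the log2 scale passed narrowly (adjusted p = 0.0407), and the call was lost with no level requirement (adjusted p = 0.144), with another filter on counts (0.0678), with only the compared groups in the fit (0.0756), with a replicate block (0.0702), without PT library 1 and Pushen library 2 together (0.106) and in 7 of the 9 fits that left 1 library out. Only the omission of PT library 3 or of Pushen library 3 kept it, and the 7 other omissions gave an adjusted p between 0.0582 and 0.127. Il17rb, the IL-25 receptor, was at 0.27, 0.21 and 0.19 FPKM in Sham, 1.02, 0.88 and 0.75 in PT and 1.12, 0.79 and 0.65 in Pushen, and rose by 1.92 ± 0.25 (adjusted p = 0.000971). Its gene overlaps the far more abundant Actr8 on the other strand, and strand use in the counting is not stated, so its values are uncertain. Il17rd, a signalling inhibitor, differed by 0.30 ± 0.15 (adjusted p = 0.160), and Il17re, the IL-17C chain, had 138 counts in Sham and 193 in PT.

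The IL-1 family had members moving both ways, with 1 of its 3 tested genes rising and 1 falling. Il1r1, the signalling receptor for IL-1, was at 0.84, 0.76 and 0.83 FPKM in Sham, 3.57, 3.51 and 3.12 in PT and 3.98, 3.82 and 1.27 in Pushen, and rose by 2.01 ± 0.35 on the log2 scale (adjusted p = 0.00371). Il1rap, the accessory chain that Il1r1 needs to signal, did not rise. It was at 3.86, 3.63 and 3.74 FPKM in Sham, 2.94, 3.72 and 2.74 in PT and 3.66, 3.69 and 3.97 in Pushen, so the groups overlapped, and its difference in PT was -0.31 ± 0.11 (adjusted p = 0.0635). In Sham Il1rap stood at several times the level of Il1r1, and in PT the levels of these chains met, at 3.13 ± 0.52 and 3.40 ± 0.24 FPKM (SD, n = 3 each).

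Il1rapl1 and Il1rapl2, X-linked relatives of Il1rap known as synaptic organisers of neurons, were lower after PT. Il1rapl1 was at 2.05, 1.77 and 2.08 FPKM in Sham, 0.93, 0.90 and 1.15 in PT and 0.97, 1.15 and 1.38 in Pushen. Every infarct library lay below every Sham library, and it fell by 1.04 ± 0.16 on the log2 scale in PT (adjusted p = 0.00220). Il1rapl2 had 264, 278 and 224 counts in the Sham libraries and 82, 166 and 61 in PT, and was lower by 1.44 ± 0.32 (fitted -1.44, adjusted p = 0.0152) without the level requirement. Of 8 neuronal marker genes 6 fell in the same comparison (median -0.55).

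The remaining IL-1 receptors stand side by side on chromosome 1 between 40074079 and 40551705, in the order Il1r2, Il1r1, Il1rl2, Il1rl1, Il18r1 and Il18rap, all on the plus strand. Their counts differed widely along this stretch, as the plot of the cluster shows. Il18r1 and Il18rap, the chains of the IL-18 receptor of T and NK cells, had 14 and 16 counts in all Sham libraries, 441 and 294 in PT and 386 and 199 in Pushen. Without the level requirement they were higher in PT by 4.80 ± 0.74 (adjusted p = 0.00240) and 4.04 ± 0.80 (adjusted p = 0.00853) on the log2 scale. The decoy receptor Il1r2, which binds IL-1 without signalling, had 46, 173 and 112 counts and was higher in PT by 1.79 ± 0.47 (adjusted p = 0.0323). An antisense gene overlaps Il1r2, and Pushen library 3 had 16 counts of it, within the Sham range of 12 to 17. Il1rl2, the IL-36 receptor, had 109, 484 and 410 counts and was higher by 2.04 ± 0.45 (adjusted p = 0.0154). In the midst of these, Il1rl1, the IL-33 receptor ST2, had 66, 104 and 74 counts, overlapped between the groups and did not pass (0.53 ± 0.58, adjusted p = 0.601).

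**Figure D2:**
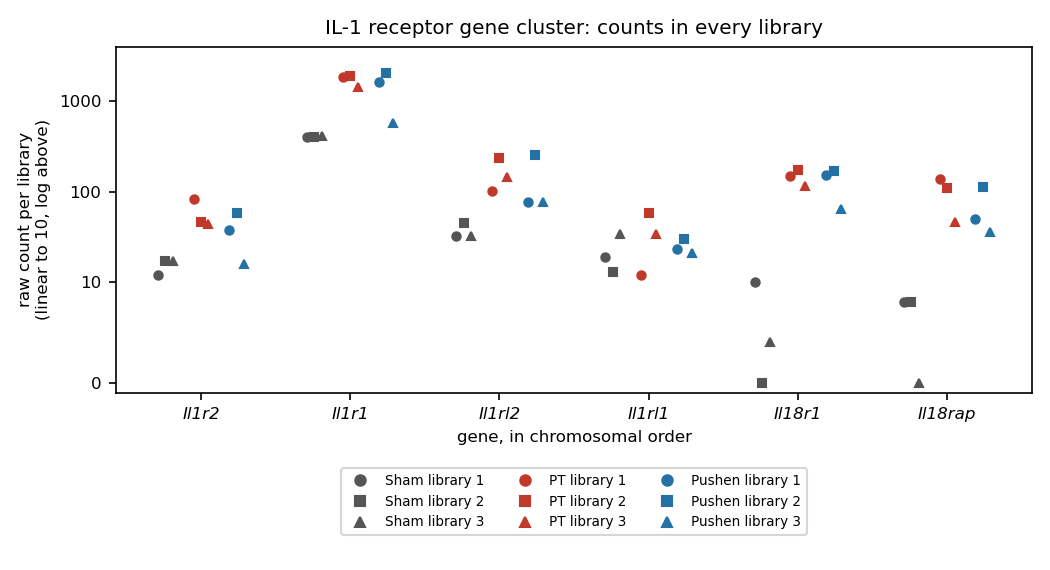
Raw counts per library (vertical, linear to 10 and logarithmic above) of the 6 IL-1 receptor genes of chromosome 1 in chromosomal order (horizontal), coloured by group. Il18r1 and Il18rap have at most 10 counts in each Sham library and at least 36 in each infarct library, while Il1rl1 has overlapping counts in all groups.

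In all, 20 members lay below the level for testing, with a mean between 0 and 0.476 FPKM. Without that requirement 7 of them were higher in PT (Il18r1, Il18rap, Il1r2, Il1rl2, Il2ra, Il12rb1 and Il27ra), 1 was lower (Il1rapl2), 11 did not pass and 1 had no count. Nearest to the level of 0.5 FPKM were Il1rapl2 (mean 0.476) and Il12rb1 (0.448) on the lower side and Il2rb (0.540) and Il17rd (0.580) on the upper side. The annotation in the deposited table puts 35 of the 39 members under cytokine-cytokine receptor interaction and 25 under Jak-STAT signaling.

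Promoter sequence was examined because members of different families and chromosomes rose together. RefSeq (GRCm38.p6) held windows for 32 of the 39 members, 38 in number with second starts, and each was read over the 250 bases before the start. A pair of short motifs was searched on both strands, the ETS factor core GGAAGT and the STAT element TTCNNNGAA, whose matches can share bases. GGAAGT was in 12 of the 38 member windows (31.6%) and in 19.7% of all 32851 windows. TTCNNNGAA was in 5 of 38 (13.2%) and in 7.02% of all. These shares are descriptions with no test, and a match is not a binding site. The windows below belong to 4 members that rose and whose RefSeq start lies within 2 bases of the deposited gene start. They show that the motif is present in some of the risers and missing in others. Capitals mark GGAAGT or its reverse complement.
Il6ra, chr3:89913197-89913446, minus strand: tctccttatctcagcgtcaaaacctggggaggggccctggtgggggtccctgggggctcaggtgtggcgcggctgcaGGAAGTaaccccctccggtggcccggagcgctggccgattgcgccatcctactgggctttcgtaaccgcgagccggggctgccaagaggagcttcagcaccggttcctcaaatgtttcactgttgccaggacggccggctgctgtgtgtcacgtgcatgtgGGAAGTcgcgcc
Il13ra1, chrX:36111858-36112107, plus strand: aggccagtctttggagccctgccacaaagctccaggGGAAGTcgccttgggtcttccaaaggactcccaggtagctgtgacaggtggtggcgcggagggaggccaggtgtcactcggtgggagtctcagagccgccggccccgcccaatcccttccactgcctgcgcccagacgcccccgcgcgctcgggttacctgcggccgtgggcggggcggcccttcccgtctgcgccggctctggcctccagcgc
Il2rg, chrX:101268256-101268505, minus strand: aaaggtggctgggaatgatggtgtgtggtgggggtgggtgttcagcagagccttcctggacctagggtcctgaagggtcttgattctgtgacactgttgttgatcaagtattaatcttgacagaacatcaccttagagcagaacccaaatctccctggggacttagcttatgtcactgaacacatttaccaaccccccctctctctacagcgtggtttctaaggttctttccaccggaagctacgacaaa
Il21r, chr7:125603179-125603428, plus strand: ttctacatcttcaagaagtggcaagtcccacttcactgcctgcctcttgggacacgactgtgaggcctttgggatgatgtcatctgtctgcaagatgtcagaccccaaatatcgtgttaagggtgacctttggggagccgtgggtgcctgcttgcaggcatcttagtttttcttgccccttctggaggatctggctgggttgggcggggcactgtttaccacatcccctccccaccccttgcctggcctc
Il6ra holds 2 matches and Il13ra1 holds 1, while the windows of Il2rg and Il21r, which rose 10.8-fold and 6.49-fold, hold 0. Il7r, which rose most (21.6-fold) and is not shown, has a match to each motif. Of the 10 risers with a window, 6 have GGAAGT and 1 has TTCNNNGAA. None of the 4 windows holds TTCNNNGAA. The windows also differ in base composition, with 65.2% and 70.8% G or C in Il6ra and Il13ra1 and 49.2% and 55.6% in Il2rg and Il21r.

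The other genes of these pathways were read from lists of ligands, partner chains, antagonists and signalling proteins. Of 38 interleukin ligand genes, 36 were in the table, 11 were tested, 5 rose and 0 fell in PT, with a median of 0.83. Of all tested genes 19.1% rose and 11.8% fell. The Sham means of Il1a, Il1b, Il16 and Ebi3 were under 0.5 FPKM, so they met the level requirement through the infarct groups. The count therefore describes the tested ligand genes only. Il1a and Il1b, the ligands of Il1r1, rose by 2.82 ± 0.48 (adjusted p = 0.00302) and 3.40 ± 0.62 (adjusted p = 0.00416). Il16, a ligand of Cd4, rose by 2.12 ± 0.41, and Ebi3, a subunit of IL-27, by 1.65 ± 0.35. Il33, the fifth that rose and the ligand of the scarce Il1rl1, was among the most abundant ligand genes at 13.9 ± 2.53 FPKM in Sham and 25.8 ± 7.04 in PT (SD, n = 3 each). No count was found in Sham for 13 of the ligand genes, and 7 of these had none in any library. Il10, Il12b and Il19, also without a Sham count, had 8, 42 and 46 counts in PT.

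Partner chains outside the name pattern rose in 8 of 10 tested cases, beside 19.1% of all tested genes. Some of them, Csf2rb, Csf2rb2 and Osmr included, had a Sham mean under 0.5 FPKM and met the level requirement through the infarct groups. Csf2rb, the beta chain that Il3ra and Il5ra use, was at 0.04, 0.06 and 0.09 FPKM in Sham, 3.42, 1.12 and 1.03 in PT and 1.17, 1.18 and 0.33 in Pushen, a rise of 4.73 ± 0.69 (adjusted p = 0.00159). Its near-identical copy Csf2rb2 rose by 4.77 ± 0.50 (adjusted p = 0.000491), and reads of these copies may be split uncertainly. Osmr, the oncostatin M receptor, rose by 2.94 ± 0.31 and Csf2ra, the GM-CSF chain, by 1.05 ± 0.15. Il6st, the gp130 chain with which Il6ra and Il11ra1 signal, was at 6.94, 4.24 and 7.15 FPKM in Sham and 14.4, 13.1 and 11.6 in PT and also rose (adjusted p = 0.0348). In Pushen it was at 12.8, 7.99 and 5.04 FPKM, with library 3 inside the Sham range. Its difference between Pushen and Sham did not pass (0.42 ± 0.31, adjusted p = 0.386). Nor did its difference between Pushen and PT (-0.62 ± 0.31, adjusted p = 0.707).

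Of 4 soluble antagonists and binding proteins only 1 was tested, and it rose. Il1rn, the IL-1 receptor antagonist, lay below the level for testing, with 0 counts in Sham and 587 in PT, which is at least 63.3-fold higher when each Sham library is set to 3 counts. The IL-18 binding protein Il18bp rose by 1.17 ± 0.24 (adjusted p = 0.00664).

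Of 17 JAK, STAT and SOCS genes 8 rose and 1 fell, where 19.1% of all tested genes rose and 11.8% fell. Socs3, a feedback inhibitor of gp130 signalling, rose by 2.70 ± 0.39, Jak3, the kinase bound to Il2rg, by 1.36 ± 0.19, and Stat6, the factor used by Il4ra, by 1.24 ± 0.18. Of 15 adaptors and kinases of IL-1 and IL-17 signalling 8 rose and 0 fell, with Zc3h12a at 2.79 ± 0.38, Irak3 at 2.16 ± 0.32, the adaptor Myd88 at 1.71 ± 0.17 and Nfkbia at 1.46 ± 0.22. The adjusted p lay between 0.000462 and 0.00163 for these 7 signalling genes. Zc3h12a and Irak3 had a Sham mean under 0.5 FPKM and met the level requirement through the infarct groups.

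**Figure D3:**
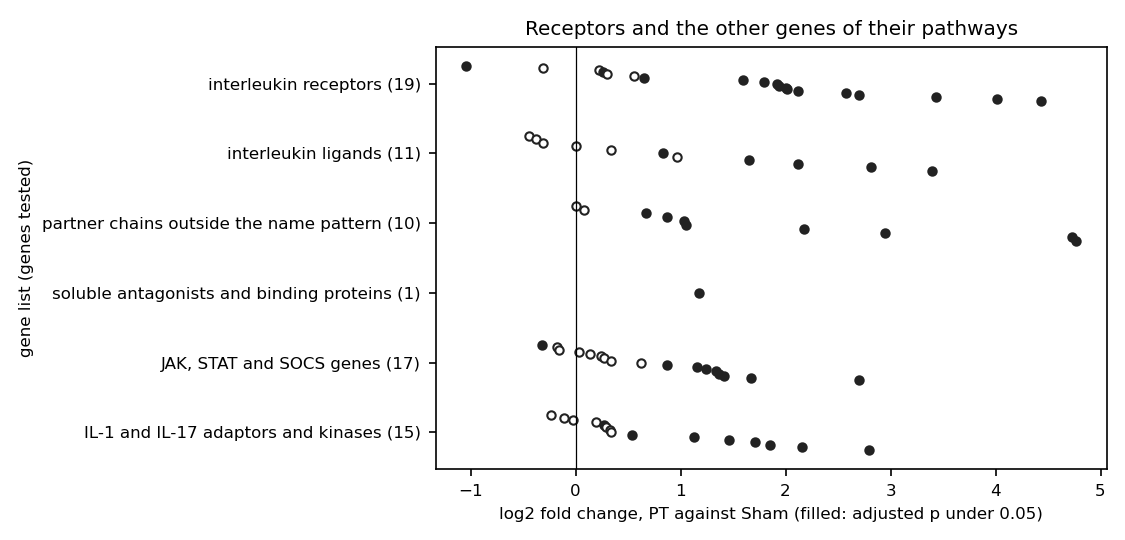
Log2 fold change in PT against Sham (horizontal) of each tested gene in 6 lists (vertical), filled where the adjusted p was under 0.05. Receptors span from -1.04 to 4.44, and 8 of the 10 tested partner chains are filled to the right of 0.

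Pushen was compared with PT to ask whether the treatment changed these transcripts, and 0 of the 19 tested members passed, as did 0 of all 16740 genes (0%) by edgeR's quasi-likelihood test. At an unadjusted p under 0.05 there were 2 members, Il11ra1 and Il1rap, and 1086 genes in all (6.49%). DESeq2 called 0 of the members and 48 genes in all. The median difference of the 19 members was -0.14 on the log2 scale, and 16 lay below 0.

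The members of smallest p were Il11ra1, Il1rap, Il21r, Il4ra, Il1rapl1 and Il17rd, with an adjusted p between 0.707 and 0.751. Il11ra1 was lower with Pushen by 0.39 ± 0.14 (fitted -0.39, 95% interval -0.69 to -0.08), and Pushen library 2 at 6.88 FPKM lay above PT library 3 at 6.56. Il1rap was at 0.26 ± 0.11 (0.00 to 0.52). Il21r and Il4ra differed by -0.68 ± 0.34 (-1.44 to 0.09) and -0.61 ± 0.33 (-1.37 to 0.15), with the highest values of both in PT library 1. Il1rapl1 differed by 0.22 ± 0.16 (-0.15 to 0.60) and Il17rd by -0.17 ± 0.15 (-0.51 to 0.16).

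By FPKM the Pushen and PT libraries overlapped for 18 of the 19 members. The exception was Il17rd, at 0.65 in each PT library and 0.55, 0.64 and 0.55 in Pushen, and 5.19% of all tested genes lay below in this way, while 0 members and 7.25% of genes lay above. For Il2rg, Il10ra and Il1r1 the intervals ran from -0.74 to 0.47, from -0.97 to 0.33 and from -0.95 to 0.59. Changes within these bounds remain possible with 3 libraries a group.

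**Figure D4:**
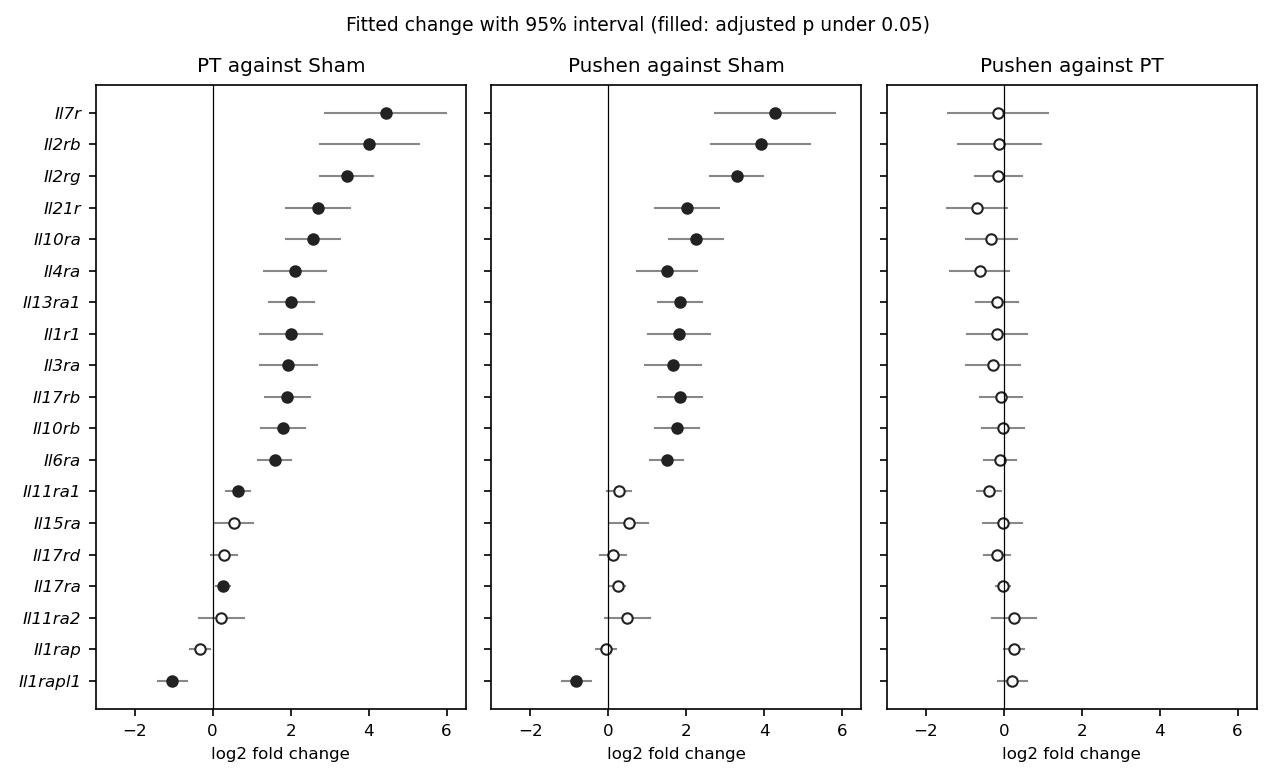
Log2 fold change (horizontal) with its 95% interval for the 19 tested members (vertical, ordered by the first panel) in PT against Sham, Pushen against Sham and Pushen against PT, filled where the adjusted p was under 0.05. In the first panel 15 points are filled, in the second 13 and in the third 0. In the third panel the intervals include 0 except for Il11ra1 (-0.69 to -0.08) and Il1rap (0.003 to 0.52).

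Pushen was also compared with Sham, sharing the Sham libraries with the first comparison. Of the 19 tested members 12 rose and 1 fell, beside 13.5% and 2.73% of all tested genes. Il2rg rose by 3.30 ± 0.30 on the log2 scale (adjusted p = 0.000546), Il6ra by 1.50 ± 0.19 (adjusted p = 0.00119) and Il10ra by 2.26 ± 0.31 (adjusted p = 0.00169), beside 3.43, 1.59 and 2.58 in PT against Sham. Il1rapl1 fell by 0.82 ± 0.16 (adjusted p = 0.00997). Il11ra1 (0.27 ± 0.14, adjusted p = 0.214) and Il17ra (0.25 ± 0.08, adjusted p = 0.0761) did not pass here, and their differences between Pushen and PT did not pass either. The rise of Il4ra in Pushen (1.51 ± 0.34, adjusted p = 0.0177) did not pass when Sham library 1, 2 or 3 was dropped (adjusted p = 0.0648, 0.0703 and 0.0524), nor on dropping Pushen library 1 (0.0580) or 2 (0.0665). Without the level requirement 17 members were higher and 1 lower, beside 6.46% and 0.881% of genes with a count. By FPKM 15 of the 19 had every Pushen library above every Sham library and 1 had every one below, beside 27.2% and 13.1% of all tested genes.

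Within the Pushen group the receptors were uneven. For all 14 members that rose in PT, Pushen library 3 was the lowest Pushen library, and for 13 of them the lowest of the 6 infarct libraries, where 66.2% of all 3202 genes that rose in PT had it lowest. Its level was between 0.280 and 0.945 times the mean of the other Pushen libraries over these 14 genes, with a median of 0.540. Il7r (0.49 FPKM against 1.60 and 1.90) and Il1r1 (1.27 against 3.98 and 3.82) showed the widest gaps, and Il17ra (3.71 against 3.89 and 3.96) the narrowest. Pushen library 3 nevertheless lay above every Sham library for each of the 14.

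Most markers of astrocytes and of several immune, vascular and scar cell types were also lower in Pushen library 3 than in both other Pushen libraries. Most neuronal markers were higher. The share of all tested genes with this library lowest was not counted. It was the lowest Pushen library for 7 of 9 monocyte and macrophage genes, 9 of 10 T cell genes, 7 of 8 B and plasma cell genes, 6 of 8 microglial genes, 8 of 8 fibroblast and meningeal genes and 6 of 8 endothelial genes, and the highest for 7 of 8 neuronal genes. Astrocyte genes had it lowest in 7 of 8 cases, pericyte and smooth muscle genes in 8 of 8, and neutrophil and NK genes in 6 of 8 each. It was the lowest for 2 of 8 dendritic cell genes and 2 of 8 mast cell and basophil genes, and for 8 of 8 striatal neuron genes. Of 8 oligodendrocyte genes it was the lowest for 1 and the highest for 5. The monocyte and macrophage list summed to 5.84 FPKM there against 12.6 and 14.0 in the other Pushen libraries, the B and plasma cell list to 78.4 against 299 and 387, and the fibroblast and meningeal list to 53.9 against 111 and 139. The microglial list summed to 99.4 against 140.1 and 147. Ms4a7 and Mrc1, the most abundant of the macrophage genes, were at 1.13 and 1.16 FPKM there and at 3.89 and 4.01, and 1.53 and 1.97, in the others. The neuronal list summed to 894 against 745 and 738. The T cell sum was higher in this library (22.8 against 18.3 and 16.6) through Trbc2 alone, which was at 18.8 FPKM against 12.3 and 9.10, while Cd3d was at 0.19 against 0.37 and 0.56. The endothelial sum (81.7 against 80.2 and 80.2) was carried by Cldn5 and Ly6c1, the genes of that list that were not lower. The part of tissue makeup in these differences was not tested.

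**Figure D5:**
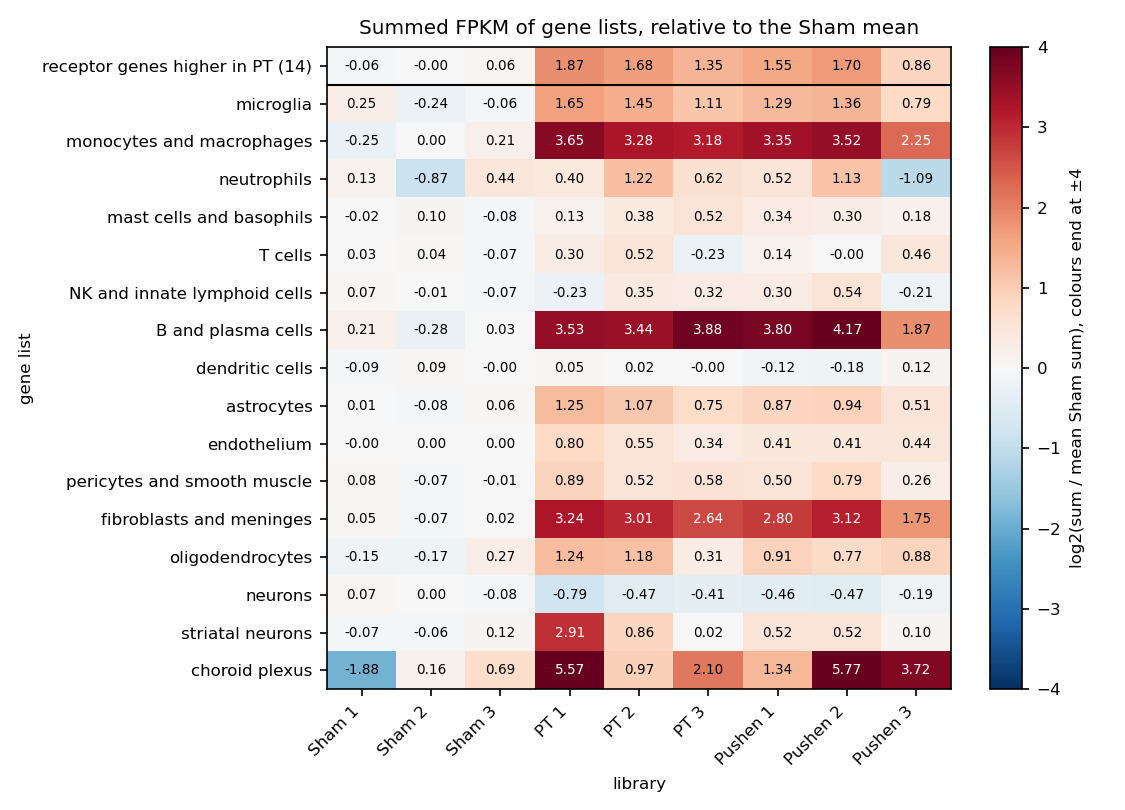
Log2 ratio of the summed FPKM of each gene list (vertical) in each library (horizontal) to the mean Sham sum, in colour and figures, with the 14 receptor genes that rose in PT in the top row. The receptor row is 0.86 for Pushen library 3 and runs from 1.35 to 1.87 for the rest of the infarct libraries, and the choroid plexus row is highest in PT library 1 and Pushen library 2.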

How the data were processed

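Bowtie 0.12.2 and mouse build mm8 are named per the submitters' processing notes. The deposited coordinates instead equal those of GENCODE M21 (GRCm38) for 34 of the 39 members. The deposited table gives raw counts per gene and library and the authors' FPKM, scaled to gene length and library size; counter and strand setting: not given in the sources used here. Per the labels' protocols the kit was TruSeq RNA from Illumina. Each of its 18 value columns bears the name of 1 library.

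Genes averaging 0.5 FPKM or more were tested on counts with edgeR 4.0.16 (R 4.3.3): TMM scaling, all 3 groups in 1 fit, glmQLFTest, Benjamini-Hochberg adjustment over all tested genes within a comparison, threshold 0.05. SE was taken from the log2 fold change and its F statistic. Changes of members below that level come from the same fit with no such requirement. Depth limits these low genes, and counting error is largest there. The pipeline was tested on simulated data.

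Members, gene lists and tests were chosen with earlier results of these data known. The rule for named genes took all members, up to 4 genes of smallest p per pathway list, the 6 members of smallest p in Pushen against PT, and the most abundant genes of a cell type list. A gene that this rule names is not reported here. Il33, Il6st, Il10, Il12b, Il19 and Il1rn were chosen after their values were seen. Alternatives were other scalings and level requirements, DESeq2 1.42.0, limma 3.58.1 on log2 CPM and on log2(FPKM + 0.1 or 1), 2-group fits, a replicate block, leaving out each library and, chosen after the data were seen, leaving out PT library 1 and Pushen library 2. Dose was not modelled. Figures were drawn with matplotlib 3.10.9.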

Additional observations from a re-analysis of the deposited data

How the results depend on the processing

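Over 3 scalings, 3 other level requirements, DESeq2, 3 limma fits, 2-group fits, the replicate block and the omission of PT library 1 with Pushen library 2, the number of members called stayed within 1.5 times that reported, from 12 to 22 in PT against Sham, from 10 to 19 in Pushen against Sham, and 0 in Pushen against PT. Leaving out 1 library gave 14 to 16 members, 12 to 14 and 0. The pathway genes called ranged from 24 to 36, from 20 to 30, and 0, and with 1 library left out from 24 to 31, from 20 to 30, and 0. With the replicate block 14, 13 and 0 members and 27, 24 and 0 pathway genes were called; the number does not pair the libraries, since same-numbered libraries' deviations from their group means correlated between -0.220 and 0.099, and beside Il17ra no member's call changed. Il1rap, not called in Pushen against Sham, turned from -0.06 to 0.0156 with library size only and to 0.0107 and 0.0088 with log2(FPKM + 0.1) and log2(FPKM + 1). Il1rap in PT against Sham passed with DESeq2 (adjusted p = 0.0387) and without PT library 2 (0.0124), and Il15ra passed in both comparisons with Sham without Pushen library 3 (0.0373 and 0.0299); the cause was not tested. Il17ra in Pushen against Sham passed with library size only (0.0419) and DESeq2 (0.0389). Without PT library 1 and Pushen library 2, 14, 13 and 0 members were called. Members with under about 100 counts a group could not be measured closely at this depth.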
